A study of Rattus norvegicus with 120 samples.

Results

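The proteasome genes of rat kidney and heart are described here, 44 of the 30560 genes in the deposited files. They were chosen by symbol alone, as every gene whose deposited symbol is Psm followed by a letter from a to g and a number. The 44 comprised 7 genes of the alpha ring, 7 of the constitutive beta ring and the immunoproteasome genes Psmb8, Psmb9 and Psmb10. A further 6 were ATPases of the regulatory cap, and 12, Psmd5 among them, were classed as its non-ATPases by their Psmd symbols. That class follows the symbol, whether or not the protein stays in the finished cap. The rest were 5 activator and inhibitor genes and 4 assembly chaperones. Psma3, Psmb11, Psmd9 and Psmd10 were not analysed here. All members except Psma8, an alpha subunit known from the testis, passed the filter on low counts in every comparison, so 43 of 44 were tested. The highest level of Psma8 in any library was 0.129 CPM, the unit of all levels here, which is counts per 1000000 counts of the library after scaling by TMM factors.

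The data are 120 RNA-seq libraries of poly-A RNA from ZSF1 rats aged 30 weeks, with 10 libraries in each of 12 groups. The ZSF1 obese rat carries leptin receptor mutations and develops obesity, diabetes, hypertension and kidney disease, and the ZSF1 lean rat is its lean control. In study A, lean rats received vehicle, and obese rats received vehicle or BT2, an inhibitor of the kinase that holds branched-chain amino acid breakdown in check. In study B, all rats were obese and received vehicle, empagliflozin (an inhibitor of the renal glucose transporter SGLT2) or BT2 plus empagliflozin. Both studies supplied kidney and heart, and the compounds were given in chow. No group of lean rats received a compound, and study B had no lean rats, so levels were tested within a study only. Kidney is the tissue named in each renal label, whereas the design text mentions cortex as well, and which libraries are cortex is not given. The labels also did not tie a kidney to a heart of the same rat.

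The proteasome is the cell's main protease for proteins tagged with ubiquitin. Its core is a barrel of alpha rings outside and beta rings inside, and the beta subunits Psmb5, Psmb6 and Psmb7 cut the protein chain. In immune cells, and in other cells exposed to interferon, Psmb8, Psmb9 and Psmb10 take the places of these 3 subunits in new particles, and the resulting immunoproteasome supplies peptides for display on MHC class I. The regulatory cap binds ubiquitin, unfolds the substrate with its ATPases (Psmc) and feeds it into the core. Psme1 and Psme2 together form another activator of the core, which interferon also induces. Psme3 forms a related activator found in the nucleus.

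Median depth was 10.1 M counts (M, 1000000) in kidney and 12.2 M in heart. A kidney library of the BT2 group (replicate 2, 22774 counts) and one of the study B vehicle group (replicate 8, 0.776 M counts) were too shallow for single-library values. They entered the tests but not the ranges and means, so those groups have n = 9 in CPM. Summed CPM of 9 kidney markers was far higher in kidney libraries than in heart libraries, and the reverse held for 8 heart markers. By fixed limits on transcripts of other tissues, 6 kidney and 11 heart libraries carried more of these than the rest. The 6 were lean replicate 8, BT2 replicate 2 and replicates 1, 4, 5 and 7 of BT2 plus empagliflozin. Results that rest on such libraries are given with and without them.

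The promoters of the 5 interferon-inducible genes are shown because these genes are known to be induced together. With Psme3, they also had the largest ratios between group medians in kidney, taken across both studies. Each runs from 100 bases before the RefSeq transcription start to 10 bases after it, on the strand of the gene, in build GRCr8. Capitals mark matches to the core of the interferon-stimulated response element on either strand, which was searched as TTTC, any 2 bases and TTTC again.
Psmb8, chr20:4657022-4657131, minus strand: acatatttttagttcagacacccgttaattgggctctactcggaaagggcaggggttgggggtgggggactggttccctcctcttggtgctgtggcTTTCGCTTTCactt
Psmb9, chr20:4668900-4669009, plus strand: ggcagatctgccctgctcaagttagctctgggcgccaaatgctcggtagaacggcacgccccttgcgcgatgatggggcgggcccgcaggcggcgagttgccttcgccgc
Psmb10, chr19:50743283-50743392, minus strand: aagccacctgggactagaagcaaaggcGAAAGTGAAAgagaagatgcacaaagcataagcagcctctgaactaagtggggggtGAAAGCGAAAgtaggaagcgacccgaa
Psme1, chr15:33038871-33038980, plus strand: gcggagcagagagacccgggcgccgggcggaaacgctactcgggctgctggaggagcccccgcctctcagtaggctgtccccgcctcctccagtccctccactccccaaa
Psme2, chr15:33052742-33052851, minus strand: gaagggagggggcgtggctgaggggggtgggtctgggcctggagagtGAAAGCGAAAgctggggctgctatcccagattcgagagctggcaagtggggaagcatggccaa
Psmb10 held 2 matches and Psmb8 and Psme2 held 1 each in these stretches, and none stood in those shown for Psmb9 and Psme1. RefSeq gave a promoter of 300 bases, 250 before the start and 50 after, for 40 of the 44 members. This motif stood in 7 of these 40 (17.5%), against 3.92% of all 33469 promoters of that length. The other 4 were Psma4, Psmb3, Psmd7 and Psmg4. The further motifs searched were CCAAT, the box bound by NF-Y (45.0% of members, 37.5% of all, all on both strands), TGACNNNGC, the core of the antioxidant response element (15.0%, 12.1%), and GGG followed by any 5 bases and CC, a core bound by NF-kappa-B (62.5%, 47.3%). A match is a description of the letters only. Psmb8 lies between Tap2 and Tap1, and Psmb9 between Tap1 and RT1-DMb, in the RefSeq gene order.

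In the kidney, the 5 interferon-inducible genes differed most between groups together with Psme3. The highest of the 6 group medians was 3.63 times the lowest for Psmb8, 3.28 times for Psmb10, 2.69 times for Psmb9, 1.80 times for Psme2, 1.70 times for Psme1 and 3.00 times for Psme3. For the other 37 members tested the ratio was at most 1.68, with a median of 1.31. In the heart the ratios were smaller, with 1.79 for Psmb9, 1.62 for Psmb10 and 1.44 for Psmb8, and a median of 1.17 over the same 37 genes. These ratios span both studies and both genotypes and carry no test. For each gene named here the highest and lowest medians came from different studies, so the ratios include any offset between studies. Kidney Psme3 ran from 419 CPM in lean rats of study A to 139.5 with both compounds in study B. Within study A its medians were 419 in lean, 391 in obese vehicle and 281 in BT2 kidney.

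**Figure D1:**
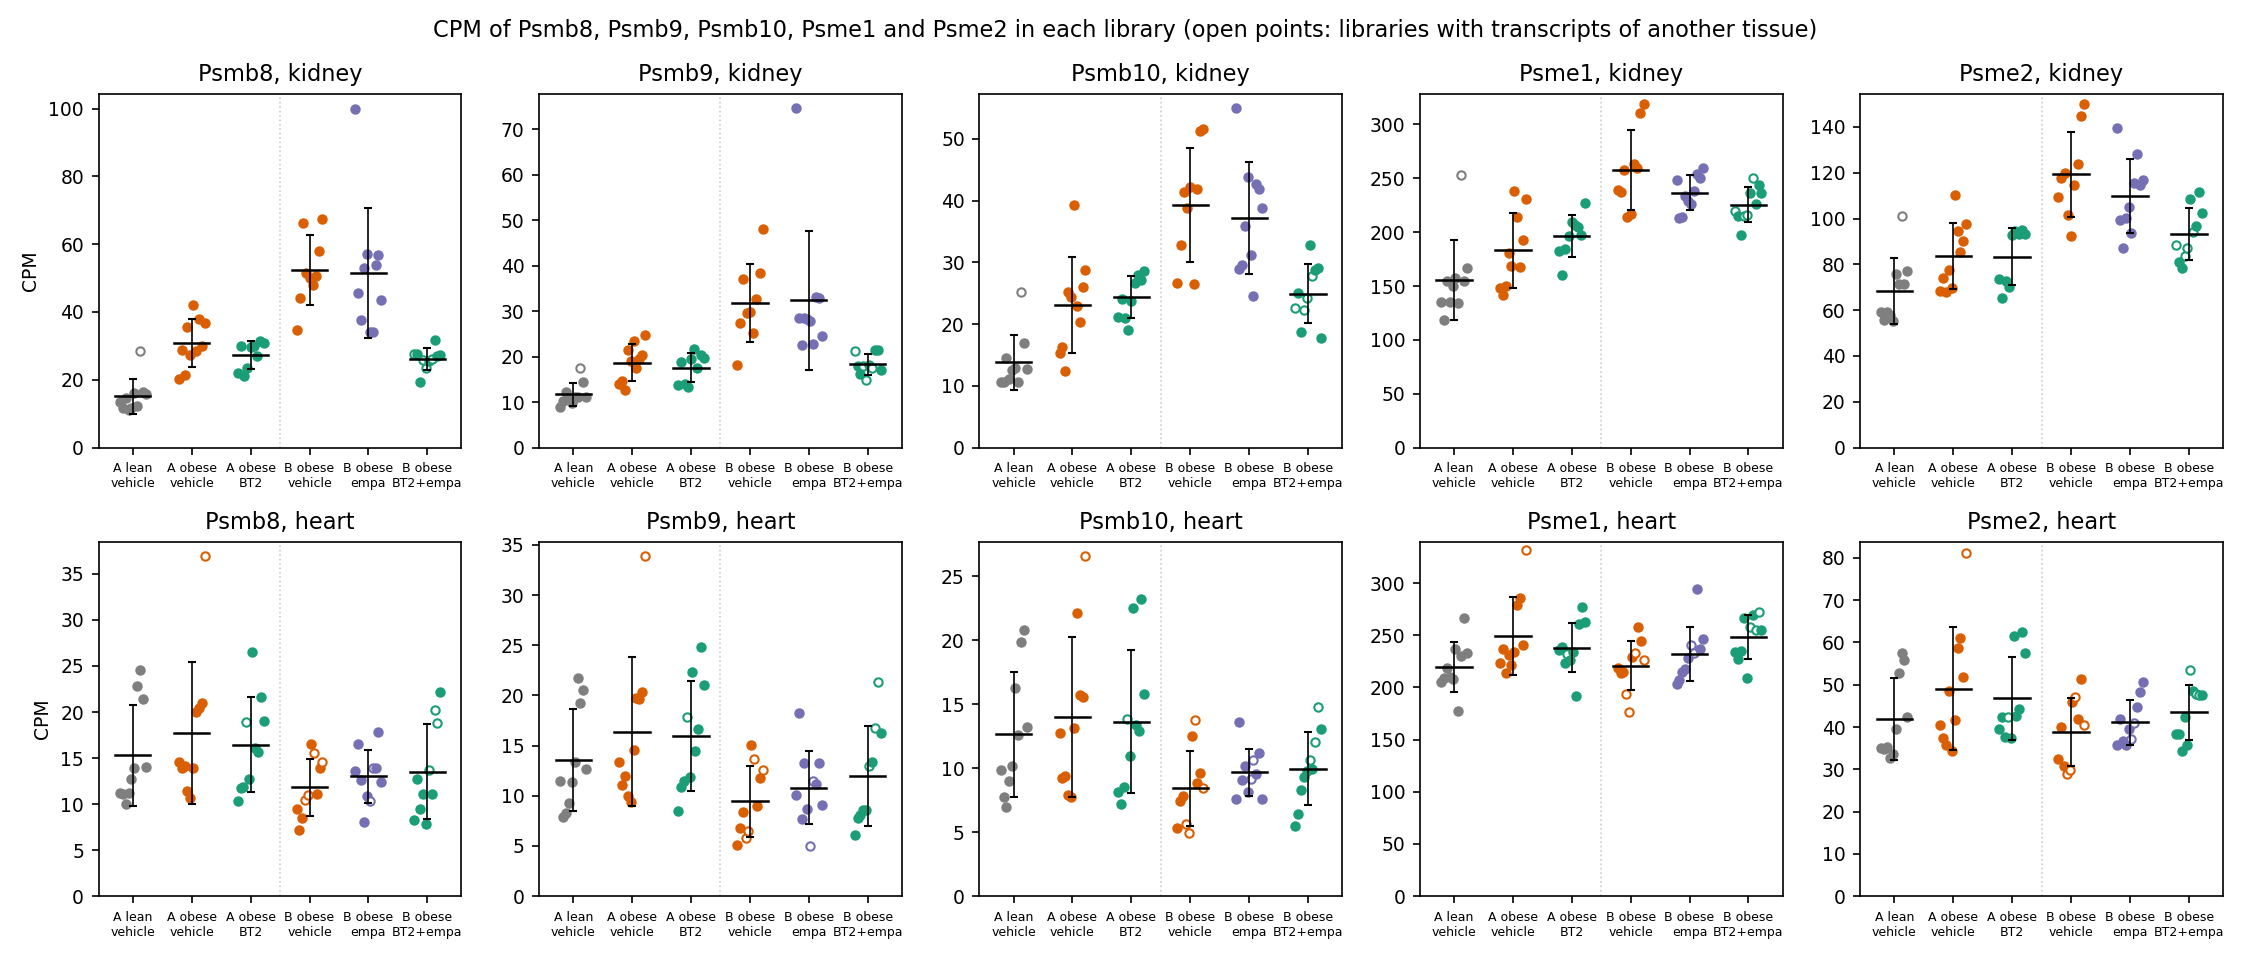
CPM of Psmb8, Psmb9, Psmb10, Psme1 and Psme2 in each kidney (top) and heart (bottom) library, by group. Each point is a library, bars are group means with SD, and open points are libraries with transcripts of another tissue. In kidney, Psmb8 in study B is at 34.7 to 67.5 with vehicle and at 19.2 to 31.7 with BT2 plus empagliflozin.

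The immunoproteasome genes were higher in obese than in lean kidney. With TMM scaling no standard subunit of the core rose. Several genes of the cap fell slightly, but lower calls were about as frequent as over all genes and depended on the scaling. With vehicle, kidney Psmb8 (ENSRNOG00000000456), the subunit that replaces Psmb5, lay at 11.03 to 28.5 CPM in lean rats (median 14.0) and at 20.2 to 42.0 in obese rats (median 29.3). All 10 obese libraries were above the lean median, and the groups overlapped through 1 lean library, replicate 8, whose next neighbour was at 16.4. The fitted difference was 1.06 ± 0.14 on the log2 scale (SE), a 2.08-fold rise (adjusted p = 9.72e-06, edgeR quasi-likelihood test with Benjamini-Hochberg adjustment). Here as in all bulk tissue, more cells of a type and more RNA per cell cannot be told apart.

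Psmb9 (ENSRNOG00000000459), which replaces Psmb6, lay at 8.83 to 17.5 CPM in lean kidney (median 11.1) and at 12.6 to 24.7 in obese kidney (median 19.3), a 1.62-fold rise (log2 0.70 ± 0.12, edgeR adjusted p = 1.06e-04). Psmb10 (ENSRNOG00000019353), which replaces Psmb7, lay at 10.7 to 25.2 (median 12.6) and 12.5 to 39.3 (median 23.7), a 1.69-fold rise (log2 0.75 ± 0.17, edgeR adjusted p = 0.00159). Obese libraries were above the lean median in 10 of 10 cases for Psmb9 and in 9 of 10 for Psmb10, and the groups overlapped for both. Psme2 (ENSRNOG00000019246), a chain of the interferon-induced activator, rose 1.247-fold, from 55.1 to 101 CPM (median 65.4) to 68.1 to 110.1 (median 81.5), with 10 of 10 obese libraries above the lean median (log2 0.32 ± 0.06, edgeR adjusted p = 7.12e-04). Its partner Psme1 (ENSRNOG00000019041) was at 118 to 253 CPM in lean kidney (median 152) and 141 to 238 in obese kidney (median 174) and missed the threshold (log2 0.25 ± 0.10, edgeR adjusted p = 0.0597). Without lean replicate 8, the highest lean library for each of these 5 genes, Psme1 differed by 0.34 and passed (edgeR adjusted p = 0.00181). The Psmb8 ranges then no longer overlapped.

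Of the 43 members tested, 4 were higher in obese kidney, against 16.9% of all 14230 genes, and 7 were lower, against 15.2%. In either direction 11 members (25.6%) were called, against 32.0% of all genes. Lower calls were about as frequent among the members as over all genes, so their roles are listed without a claim about the cap. The 7 lower members were the ATPases Psmc1, Psmc2, Psmc4 and Psmc5, the non-ATPases Psmd2 and Psmd3, and Psmg1. Psmd2 and Psmd3 are scaffold proteins of the cap, and Psmg1 is a chaperone that helps assemble the alpha ring. Their log2 differences were small, between -0.22 and -0.12, with edgeR adjusted p from 0.0162 to 0.0432. Psmg1 was at 31.5 to 41.0 CPM in lean kidney (median 35.4) and at 29.8 to 35.1 in obese kidney (median 31.2). Psmd3 was at 97.0 to 118 (median 106) and 72.1 to 105 (median 93.5). The ranges of both genes overlapped between lean and obese. None of the 6 tested alpha and 7 constitutive beta genes passed, and the median over all members was -0.09, beside -0.02 over all genes. On library size alone, without TMM factors, the median of all genes moved to 0.15, and 10 members were higher and 0 lower, with all 5 interferon-inducible genes among the 10. With the replicate number as a block 4 were higher and 1 lower, and without the plate term 4 and 3. Plate 2 alone, with 5 libraries a group, gave 2 higher (Psmb8 and Psmb9) and 0 lower, and plate 1 alone 4 and 4, while the median over the members was -0.07 in both plates.

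Psmb8, Psmb9 and Psmb10 together made up a median of 9.31% of the summed CPM of the 6 genes Psmb5 to Psmb10 in lean kidney and 18.5% in obese kidney of study A. The share was 16.4% with BT2. In study B it was 25.9% with vehicle, 25.3% with empagliflozin and 15.9% with BT2 plus empagliflozin. CPM is not scaled to transcript length, so the share is compared between groups and is not a share of particles. In the heart the medians lay between 9.27% and 13.0%.

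With BT2 alone, no proteasome gene of obese kidney passed the test against vehicle. Psmb8 was at 21.2 to 31.3 CPM with BT2 (median 29.6), Psmb9 at 13.2 to 21.8 (median 18.8) and Psmb10 at 19.1 to 28.6 (median 24.1), inside or overlapping the vehicle ranges above. Their log2 differences were -0.20 ± 0.11, -0.11 ± 0.11 and 0.07 ± 0.13 (edgeR adjusted p = 0.262, 0.539 and 0.794). Psme1 (160.1 to 227 CPM, median 197) and Psme2 (65.5 to 95.1, median 92.9) differed by 0.08 and -0.03 (edgeR adjusted p = 0.626 and 0.816). No member was called by edgeR, against 5.67% of all genes, while 4 had an unadjusted p under 0.05 and DESeq2 called 1, Psme3, as lower. Psme3 was also the 1 call without the shallow library and on library size alone. Psme3 (ENSRNOG00000053448) was at 221 to 524 CPM with vehicle (median 391) and at 232 to 358 with BT2 (median 281). All 9 BT2 libraries were below the vehicle median, but within its range (log2 -0.49 ± 0.15, edgeR adjusted p = 0.0607).

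Against lean rats, obese rats on BT2 had higher immunoproteasome levels. Psmb8 was higher by 0.84 ± 0.13, Psmb10 by 0.81 ± 0.13, Psmb9 by 0.57 ± 0.10 and Psme2 by 0.27 ± 0.09 on the log2 scale (edgeR adjusted p = 3.36e-05, 5.59e-05, 2.05e-04 and 0.0174). For these 4 genes all 9 BT2 libraries were above the lean median. Psme1 differed by 0.30 ± 0.12 and missed the threshold (edgeR adjusted p = 0.0558). Psme3 was lower (log2 -0.62 ± 0.14, edgeR adjusted p = 0.00127), with 232 to 358 CPM against 369.6 to 538 in lean kidney (median 419). It was the only member whose 2 groups did not overlap, as was the case for 5.26% of all genes. Also lower were Psmd1, a scaffold of the cap (113 to 166 CPM against 147 to 187), Psmd6, another non-ATPase of the cap (61.2 to 91.9 against 75.0 to 119), and Psme4, a nuclear activator (102 to 154 against 126 to 196), by -0.27, -0.26 and -0.27. All 3 ranges overlapped. In all 8 members were called, 4 higher and 4 lower, against 39.7% of all genes. With DESeq2 size factors the split was 7 higher and 2 lower, and on library size alone (median of all genes 0.16) 13 and 1. The count rose to 13 without the shallow library and to 14 without the 2 libraries carrying other tissue, and was 5 in plate 1 alone.

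Empagliflozin alone gave no edgeR call among the members, against 1.06% of all genes, although 36 of the 43 differences were negative and their median was -0.09, beside 0.01 over all genes. In the study B vehicle group Psmb8 was at 34.7 to 67.5 CPM (median 50.6), Psmb9 at 18.2 to 48.1 (median 29.9) and Psmb10 at 26.5 to 51.6 (median 41.5). With empagliflozin they were at 34.0 to 99.9 (median 49.3), 22.6 to 74.6 (median 28.4) and 24.5 to 55.1 (median 37.3). The ranges overlapped almost wholly, apart from 1 empagliflozin library, replicate 1, that was highest for Psmb8 and Psmb9. The log2 differences were -0.02, 0.01 and -0.09 for these 3 genes, -0.13 for Psme1 and -0.11 for Psme2 (edgeR adjusted p = 0.978, 0.994, 0.777, 0.214 and 0.494). An unadjusted p under 0.05 was reached by 13 members, and DESeq2 called 6 lower: Psmb3, Psmb4, Psmb5, Psmb6, Psmb7 and Psma7. The share of all genes called by DESeq2 is not given here, so the count is not read as a result about the members.

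With BT2 plus empagliflozin the immunoproteasome genes of obese kidney were lower by up to 2-fold. Psmb8 was at 19.2 to 31.7 CPM (median 26.5), below every vehicle library of study B (log2 -1.001 ± 0.10, 2.00-fold lower, edgeR adjusted p = 9.48e-08). Psmb9 was at 14.9 to 21.5 (median 17.9, log2 -0.82 ± 0.12, edgeR adjusted p = 1.59e-05). Psmb10 was at 17.8 to 32.8 (median 24.7, log2 -0.69 ± 0.12, edgeR adjusted p = 1.27e-04). The ranges of Psmb9 and Psmb10 overlapped those with vehicle, but all 10 treated libraries were below the vehicle median for each of the 3 genes.

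Both chains of the interferon-induced activator fell as well. Psme2 was at 92.5 to 149.8 CPM with vehicle (median 118) and at 78.3 to 112 with both compounds (median 91.3, log2 -0.36 ± 0.06, edgeR adjusted p = 6.06e-05). Psme1 was at 214 to 319 (median 258) and 198 to 250.4 (median 223, log2 -0.20 ± 0.05, edgeR adjusted p = 0.00392). The ranges overlapped, with 10 of 10 treated libraries below the vehicle median for both genes. The nuclear activator Psme3 fell from 164 to 227 CPM (median 177) to 105 to 158 (median 139.5) without overlap (log2 -0.45 ± 0.07, edgeR adjusted p = 2.50e-05).

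Across the 43 members, 13 were lower (14.8% of all 14037 genes) and 1 was higher (17.3%), or 14 in either direction (32.1%). Beside the 6 genes above, the lower members were the alpha subunits Psma2, Psma4, Psma5 and Psma7, the structural beta subunit Psmb3, the inhibitor Psmf1 and the chaperone Psmg3, by log2 -0.27 to -0.15. Psma4 was at 83.7 to 122 CPM with vehicle (median 111) and at 78.7 to 96.2 with both compounds (median 89.2), with overlap. The higher member was Psmd1 (log2 0.19). None of the 6 ATPases passed. Psmb8 and Psme3 were the 2 members whose groups did not overlap, against 3.47% of all genes. Transcripts of another tissue were high in 4 of the 10 treated libraries, and 3 of the 5 heart markers tested were higher with both compounds. Without these 4 libraries, Psmb8 differed by -1.02 and the 5 interferon-inducible genes were all still called, with 11 members lower and 0 higher. Plate 1 alone gave 6 calls and plate 2 alone 9. On library size alone (median of all genes -0.10) 24 members were lower and 0 higher.

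Set against empagliflozin alone, the addition of BT2 went with lower Psmb8, Psmb9 and Psmb10 by -0.98 ± 0.15, -0.81 ± 0.17 and -0.59 ± 0.13 on the log2 scale (edgeR adjusted p = 6.56e-05, 0.00116 and 0.00175). Psmb8 and Psmb9 did not overlap between these groups, as was so for 2.56% of all genes. All 10 libraries with both compounds were below the empagliflozin median for the 3 genes. Psme3 (146 to 202 CPM with empagliflozin, median 166), Psme2, Psma4 and Psmg3 were also lower, by -0.32, -0.25, -0.15 and -0.21. Psme1 did not pass (log2 -0.07, edgeR adjusted p = 0.221). Higher were the non-ATPases Psmd3 and Psmd13 (log2 0.25 and 0.14) and Psmb5, the subunit that Psmb8 replaces (log2 0.18). Psmd3 was at 97.6 to 138 CPM with empagliflozin (median 107) and at 106 to 143 with both (median 133). The totals were 7 lower (14.8% of all genes), 3 higher (17.0%) and 10 in either direction (31.7%). Without the 4 libraries carrying other tissue 5 lower calls were left, Psmb8, Psmb9, Psmb10, Psme3 and Psma4, and plate 2 alone gave 3 calls. On library size alone (median of all genes -0.17) 21 were lower and 0 higher, so the 3 higher calls were not made on that scale.

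The BT2 difference of the 3 immunoproteasome genes was not the same in study B, with empagliflozin, as in study A, without it. The BT2 difference in study B, where both groups received empagliflozin, was below that in study A for Psmb8 (log2 interaction -0.81 ± 0.20, edgeR adjusted p = 0.0116). For Psmb10 the interaction was -0.67 ± 0.20 and for Psmb9 -0.74 ± 0.22 (edgeR adjusted p = 0.0318 and 0.0333). These were the only 3 members called, all lower, against 3.15% of genes in that direction and 7.94% in either. Study and empagliflozin changed together in this contrast and cannot be told apart. Psmb8 alone was called without the libraries carrying other tissue, and no member was called in either plate alone.

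**Figure D2:**
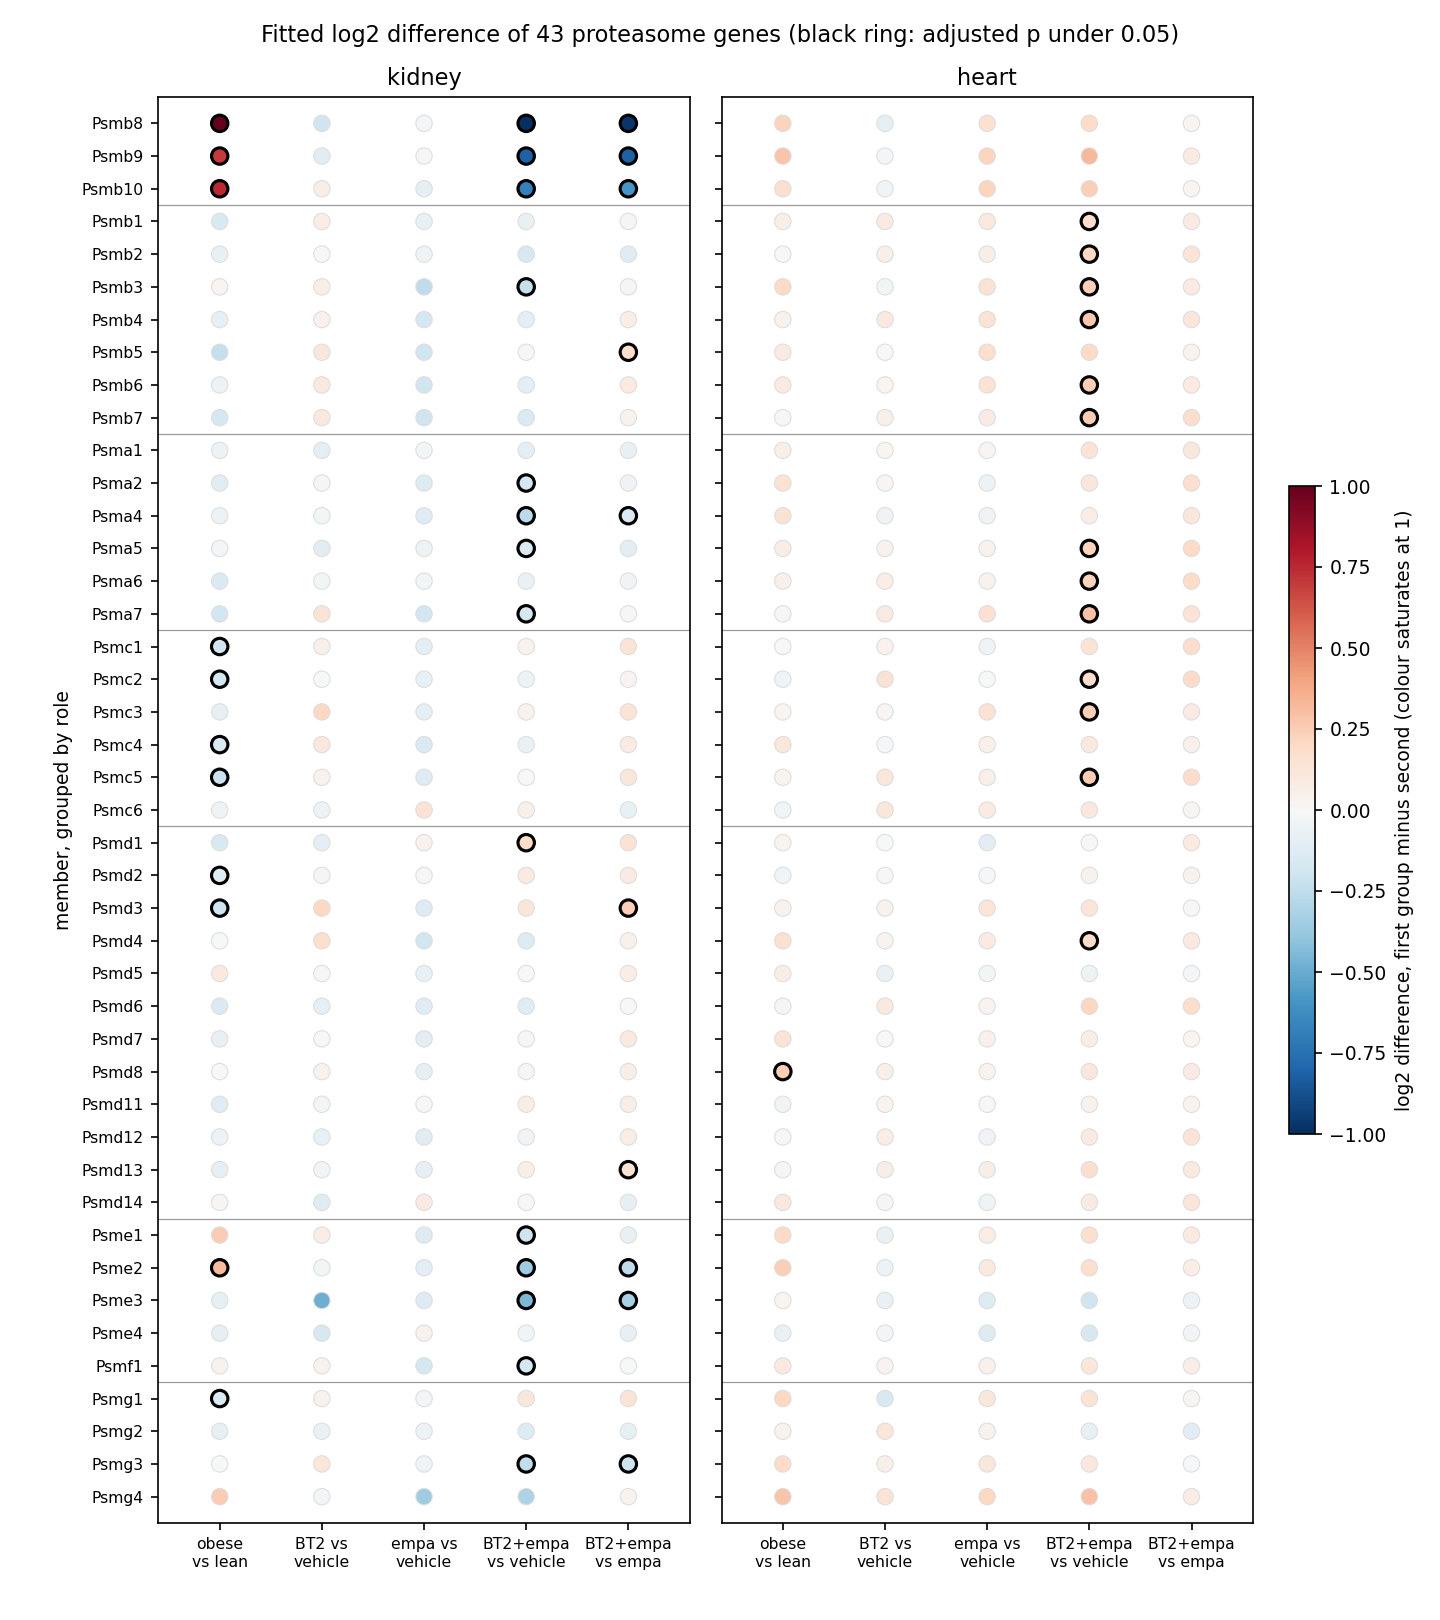
Fitted log2 differences of the 43 tested members (rows, grouped by role from the immunoproteasome at the top to the chaperones at the bottom) in 5 comparisons for kidney (left) and heart (right). Red is higher and blue lower in the first-named group, and a black ring marks an adjusted p under 0.05. The 3 immunoproteasome genes are ringed red in obese kidney and ringed blue with BT2 plus empagliflozin, and ringed heart points are mostly in the core subunits with BT2 plus empagliflozin.

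The obesity contrast of study A and the BT2 plus empagliflozin contrast of study B share no library. All 4 members that were higher in obese kidney (Psmb8, Psmb9, Psmb10 and Psme2) were lower with both compounds. Over all genes, 1079 of 2348 genes higher with obesity (46.0%) were lower with both compounds. None of the 7 members lower with obesity was higher with both compounds, where 994 of 2092 genes (47.5%) were. These counts are with TMM scaling.

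**Figure D3:**
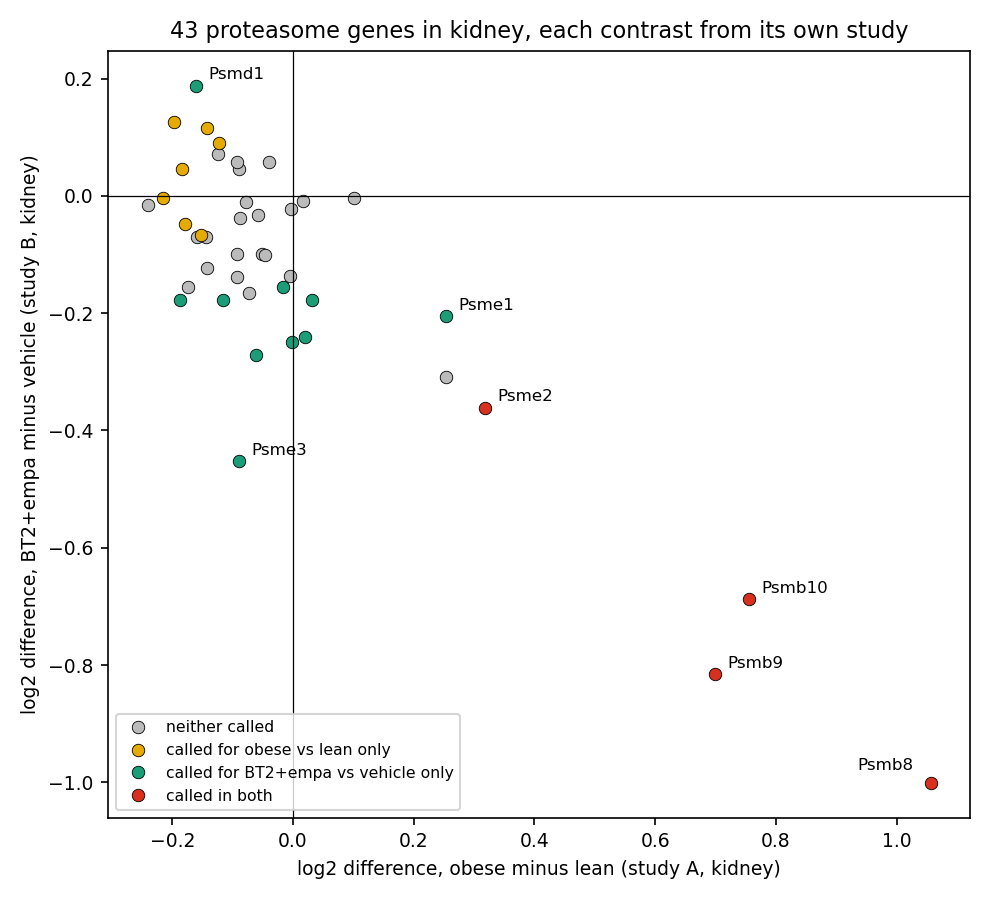
Fitted log2 difference of each of the 43 tested members in kidney between obese and lean rats of study A (horizontal) and between BT2 plus empagliflozin and vehicle in study B (vertical), coloured by which contrasts were called. Psmb8, Psmb9, Psmb10 and Psme2 lie at the lower right, called in both, and Psme3 and Psme1 were called with both compounds only.

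Genes of the same pathway outside the proteasome moved with these genes. In a list of 20 genes for class I antigen presentation and interferon response, 19 were tested. Of these, 15 rose in obese kidney, against 16.9% of all genes. Among them were the interferon-regulated transcription factors Irf8 (log2 1.08) and Irf1 (0.88), the chemokine Cxcl10 (1.16) and the peptide transporter gene Tap1 (0.80). With both compounds 16 of 19 fell against vehicle (14.8% of all genes) and 17 fell against empagliflozin (14.8%). Those lower than with vehicle included the peptide-loading chaperones Calr (-0.56) and Pdia3 (-0.49) and the interferon-induced GTPase Gbp2 (-0.95). With BT2 alone 4 fell, Oas2, Irf8, Pdia3 and Erap1, against 5.67% of all genes called in either direction. Counts of this list on library size alone are not given here.

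Leukocyte markers moved in the same direction. Of 17 such genes, 15 were tested in each of these contrasts. In obese kidney 12 rose, against 16.9% of all genes (Csf1r by 1.07, Laptm5 by 1.27 and C1qb by 1.21 on the log2 scale). With both compounds 12 fell against vehicle (14.8% of all genes) and 13 against empagliflozin (14.8%). With BT2 alone 3 fell, against 5.67% of all genes called in either direction. Counts of these markers on library size alone are not given here. Their summed CPM was 623 to 805 in lean kidney and 818 to 1346 in obese kidney of study A, and 722 to 1014 with BT2. In study B it was 740 to 1403 with vehicle, 862 to 2372 with empagliflozin and 446 to 694 with both compounds. No leukocyte marker was at 0 throughout any group. The part of these markers in the differences of Psmb8, Psmb9, Psmb10, Psme1 and Psme2 was not tested. Of 9 kidney markers, 5 were lower in obese kidney (15.2% of all genes), and 2 were higher (17.3%) and 1 lower (14.8%) with both compounds. Their part was not tested either.

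**Figure D4:**
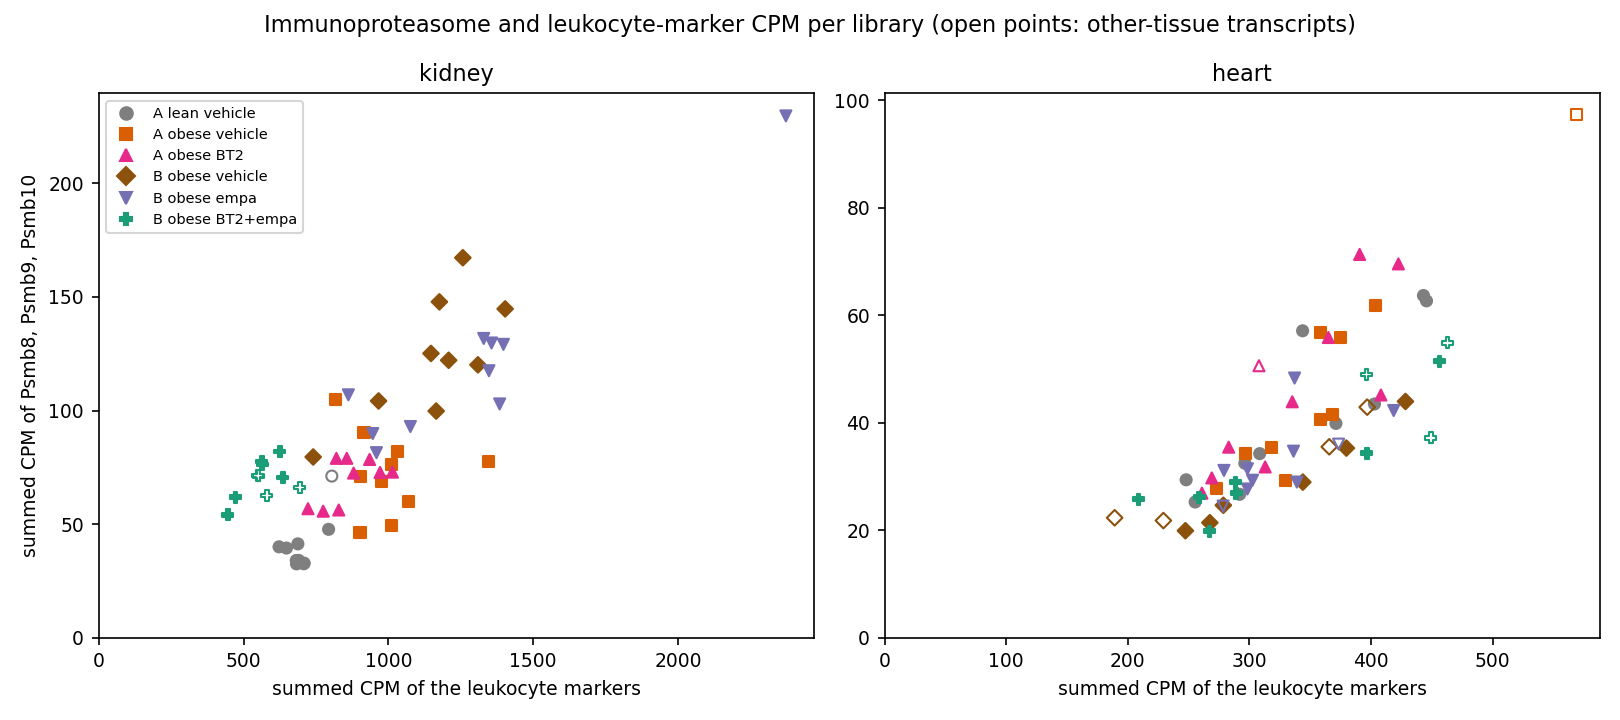
Summed CPM of Psmb8, Psmb9 and Psmb10 (vertical) against summed CPM of 17 leukocyte markers (horizontal) in each library of kidney (left) and heart (right), with 1 symbol per group and open symbols for libraries with transcripts of another tissue. The kidney library highest on both axes is from the empagliflozin group, at 2372 CPM of leukocyte markers, and the lowest leukocyte sums are those of BT2 plus empagliflozin.

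Among 23 further genes of proteasome assembly, regulation and ubiquitin supply, obese kidney had 6 lower (15.2% of all genes) and 0 higher, led by Psme3ip1, a partner of Psme3 (log2 -0.29), and Ddi2, the protease that activates Nfe2l1 (-0.45). With both compounds 8 were higher (17.3% of all genes) and 1, the cap subunit Sem1 (-0.17), was lower (14.8%). On library size alone these splits were 1 higher and 1 lower for obesity and 1 higher and 5 lower for both compounds. Ddi2 (log2 0.58, edgeR adjusted p = 3.63e-05) and the ubiquitin-chain adaptor Nploc4 (0.32) led them. Nfe2l1, a transcription factor that induces proteasome subunits when the proteasome is impaired, was higher by 0.22 (edgeR adjusted p = 0.0178). It differed by -0.19 between obese and lean kidney, 0.16 with BT2 and 0.11 with empagliflozin (edgeR adjusted p = 0.303, 0.248 and 0.339).

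In the heart, the immunoproteasome genes did not pass in any comparison, and the differences were in other subunits. Between obese and lean heart, Psmb8 was at 10.6 to 37.0 and 10.1 to 24.6 CPM (medians 14.3 and 13.3), with a log2 difference of 0.23 ± 0.14. Psmb9 differed by 0.28 ± 0.14 and Psmb10 by 0.17 ± 0.14 (edgeR adjusted p = 0.413, 0.287 and 0.562 in that order). All ranges overlapped widely. Psme1 differed by 0.20 and Psme2 by 0.24 (edgeR adjusted p = 0.137 and 0.173). The member called was Psmd8, a non-ATPase of the cap, at 43.9 to 64.3 CPM in lean (median 49.8) and 47.9 to 84.2 in obese heart (median 61.5), with overlap (log2 0.24 ± 0.06, edgeR adjusted p = 0.0274). That is 1 of 43 members, against 5.36% of all genes. Psmd8 was also the 1 member called between BT2-treated obese and lean heart (48.0 to 86.5 CPM, log2 0.30 ± 0.07, edgeR adjusted p = 0.0195), against 4.27% of all genes. Neither Psmd8 call held without the plate term, in either plate alone or on library size alone, where the medians of all genes were -0.17 and -0.25 and 2 and 12 other members were called as lower, and both comparisons share the lean libraries.

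BT2 alone gave no member call in heart against vehicle by edgeR or DESeq2, with 1 member at an unadjusted p under 0.05, against 0.0558% of all genes called. Psmb8, Psmb9 and Psmb10 differed by -0.09, -0.02 and -0.03 and Psme1 and Psme2 by -0.06 each (edgeR adjusted p from 0.947 to 0.995). Empagliflozin alone also gave none by either tool, with 7 at an unadjusted p under 0.05, against 0.107% of all genes. There the differences of Psmb8, Psmb9 and Psmb10 were 0.16, 0.22 and 0.22, and those of Psme1 and Psme2 0.07 and 0.10 (edgeR adjusted p from 0.701 to 0.802). In plate 1 alone 11 members passed for empagliflozin, 8 higher and 3 lower. The share of all genes called in that fit is not given here, so the count is not read as a result about the members.

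With BT2 plus empagliflozin, core subunits of the heart proteasome were higher than with vehicle by 0.18 to 0.29 on the log2 scale. Psmb7, the catalytic subunit with trypsin-like activity, was at 104 to 138 CPM with vehicle (median 125) and 138 to 160.2 with both compounds (median 148), with log2 0.26 ± 0.05 (edgeR adjusted p = 0.00247). Psma7, an alpha subunit, was at 61.9 to 101 (median 87.7) and 84.1 to 129.7 (median 103), with log2 0.29 ± 0.06 (edgeR adjusted p = 0.00398). Psmc5, an ATPase, was at 96.0 to 138 (median 120) and 121 to 159.7 (median 137), with log2 0.25 ± 0.05 (edgeR adjusted p = 0.00483). For Psmb7 the groups met almost without overlap, while Psma7 and Psmc5 overlapped. Psmb4 and Psmb6 rose by 0.27 and 0.24 (edgeR adjusted p = 0.00508 for both).

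By role, 6 of 7 constitutive beta genes, 3 of 6 tested alpha genes, 3 of 6 ATPases and 1 of 12 non-ATPases were called, together 13 higher and 0 lower, against 3.58% of all genes higher and 5.13% in either direction. The median over the members was 0.17, beside -0.00 over all genes. Of the 13, 8 were called without a low-count filter, 6 with the replicate number as a block, 2 on library size alone and 1 without the plate term, with a median over the members of 0.15 to 0.16 in these 4 fits. Psmb8, Psmb9 and Psmb10 differed by 0.19, 0.32 and 0.25 and Psme1 and Psme2 by 0.17 each, none called (edgeR adjusted p from 0.0514 to 0.438). Of the 23 further proteasome genes 3 were higher and 0 lower, among them Pomp, the chaperone of core maturation (0.36), and Sem1 (0.27). Trim63, a muscle ubiquitin ligase, was higher as well (0.24). Nfe2l1 was not called (log2 -0.09, edgeR adjusted p = 0.511).

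Of the 20 heart libraries in this comparison, 7 carried transcripts of another tissue. Without them 13 libraries were left and no member was called, while 111 of 12199 genes (0.910%) were. All 13 differences were still positive, between 0.11 and 0.23 with a median of 0.17, where they had been 0.18 to 0.29 with a median of 0.23, and their edgeR adjusted p ran from 0.131 to 0.527. Of the 23 further genes 2 were called without these libraries. Pomp was 1 of them (log2 0.30, edgeR adjusted p = 0.0366), while Sem1 (0.22) and Trim63 (0.23) were not (edgeR adjusted p = 0.181 and 0.200). No member was called in either plate alone. Against empagliflozin alone, BT2 plus empagliflozin gave no member call in heart by edgeR, against 0.0249% of all genes. An unadjusted p under 0.05 was reached by 12 members, and DESeq2 made 6 calls, for which the share of all genes is not given here. The BT2 difference in study B, with empagliflozin, was also set against that in study A, without it. This gave no call in heart by either tool, with 3 members at an unadjusted p under 0.05, against 0.00% of all genes. Study and empagliflozin cannot be told apart in this contrast.

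**Figure D5:**
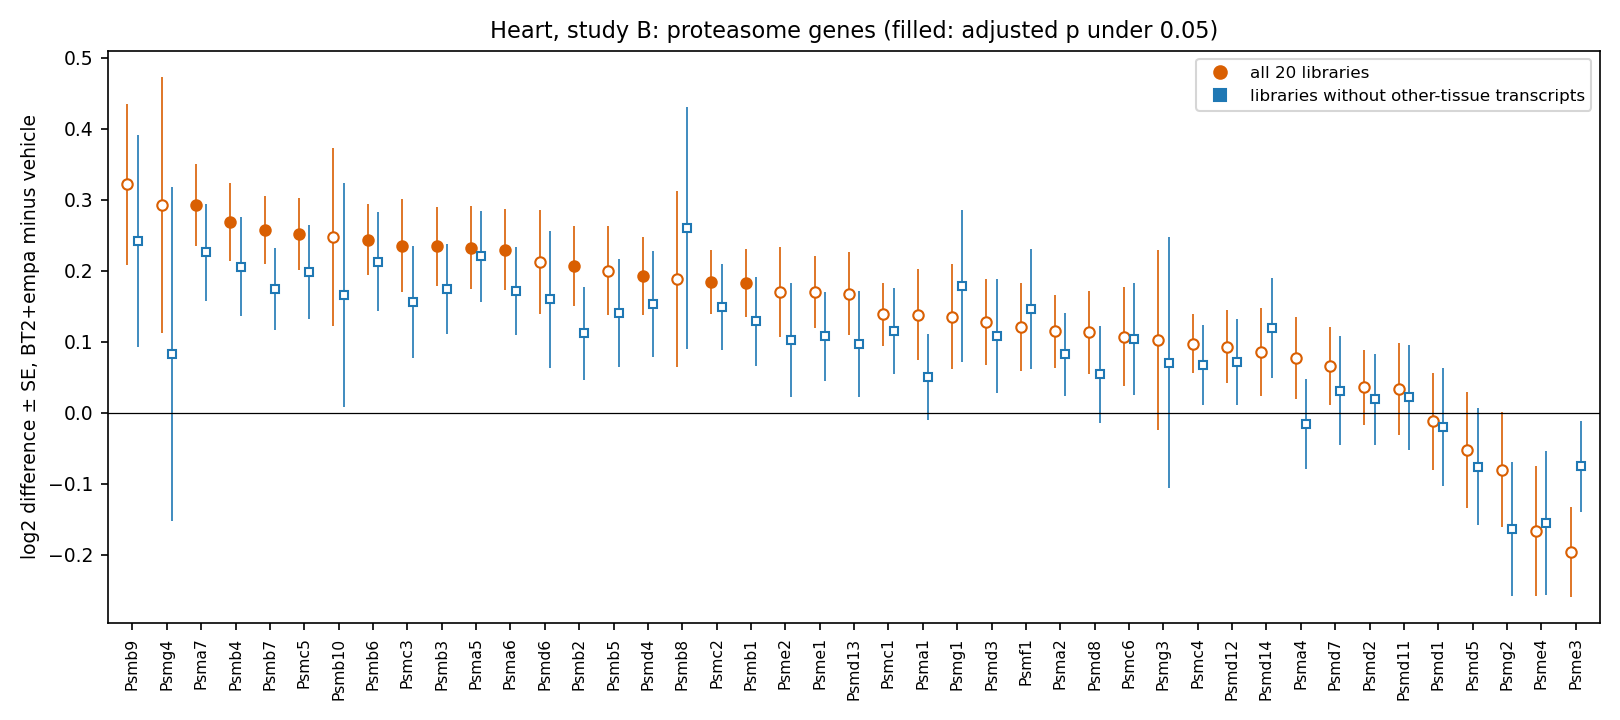
Fitted log2 difference with its SE for each tested member in heart between BT2 plus empagliflozin and vehicle, with all 20 libraries (circles) and with the 13 libraries without transcripts of another tissue (squares). Filled symbols have an adjusted p under 0.05. The 13 called genes lie between 0.18 and 0.29 with all libraries and between 0.11 and 0.23 without the 7.

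Kidney and heart differed in how the members responded. The effect of both compounds was lower in kidney than in heart for 21 members and higher for 0, against 7.19% of all genes lower and 14.1% in either direction. The differences of the effects were largest for Psmb8 (log2 -1.21 ± 0.18), Psmb9 (-1.15 ± 0.20) and Psmb10 (-0.94 ± 0.19), with edgeR adjusted p = 1.17e-05, 1.05e-04 and 5.91e-04. Psme2 differed by -0.54 and Psme1 by -0.39. The called genes also included 5 of 6 tested alpha and 6 of 7 constitutive beta genes, which were lower in kidney or higher in heart. Without the libraries carrying other tissue 12 members were called, and on library size alone 21, all lower in kidney. The effect of obesity was higher in kidney for Psmb8 (log2 0.83 ± 0.21, edgeR adjusted p = 0.00539) and lower for Psmg1 and Psmc4 (-0.36 and -0.27), 1 higher (7.32% of all genes), 2 lower (6.38%) and 3 in either direction (13.7%). Without the libraries carrying other tissue the calls were instead Psmb8 (1.12), Psmb10 (0.82) and Psmb9 (0.63), all higher. For that contrast plate 2 alone gave no call. On library size alone (median of all genes 0.34) 13 members were higher in kidney and 0 lower, with Psmb8 at 1.203 (edgeR adjusted p = 3.25e-05), and Psmg1 and Psmc4 were not called.

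In lean rats, whether most members were lower or higher in kidney than in heart depended on the scaling. With TMM factors 36 of 43 members were lower in kidney (39.9% of all genes) and 2 higher (41.1%), or 38 in either direction (81.0%). On library size alone 6 were lower and 28 higher, and the median difference of all genes was 0.85 instead of 0.01. On library size less mitochondrial counts 21 were lower and 6 higher, with a median of all genes of 0.39. Mitochondrial transcripts took a median of 15.8% of lean kidney and 39.0% of lean heart counts.

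The organ differences of Psme3, Psme1, Psmb8 and Psmb9 had the same direction and passed on all 3 scales. With TMM factors over these 20 lean libraries, Psme3 was at 247 to 358 CPM in kidney (median 280.3) and 83.2 to 119 in heart (median 103), with log2 1.49 ± 0.09 (edgeR adjusted p = 3.20e-12). Psme1 was at 79.4 to 171 CPM in kidney (median 102) and 265 to 392 in heart (median 316), with log2 -1.65 ± 0.11 (edgeR adjusted p = 1.35e-11). Neither gene overlapped between the organs. As plain counts per 1000000 counts of the library, Psme3 was at 291 to 492 and 61.2 to 89.5, and Psme1 at 106 to 198 and 199 to 288, again without overlap. Psmb8 and Psmb9 were lower in kidney by -1.13 and -1.31 with TMM factors and by -0.31 and -0.48 on library size alone (edgeR adjusted p = 0.0352 and 0.00303 for the latter). Psmb10 differed by -0.97 and -0.14, the second not called (edgeR adjusted p = 0.382). Psme2 was lower by -0.43 with TMM factors and higher by 0.40 on library size alone (edgeR adjusted p = 1.85e-05 for the latter). With TMM factors the 2 organs did not overlap for 14 members, as for 45.1% of all genes.

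The spread between replicates was smaller for most members than for genes in general. The genes were not matched for expression level, and the part of level in this difference was not tested. The median within-group SD of log2 CPM over the 38 tested members other than the 5 interferon-inducible genes was 0.16 in kidney and 0.18 in heart, beside 0.26 and 0.31 over all genes. The lowest was that of Psmd2 in kidney (0.10), and the highest that of the chaperone Psmg4 (0.69 in kidney, 0.61 in heart). Psmb8, Psmb9 and Psmb10 varied more, with 0.33, 0.33 and 0.35 in kidney and 0.44, 0.52 and 0.48 in heart.

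The obese vehicle groups of the studies stood at different levels. Kidney Psmb8 was 30.8 CPM in study A and 52.3 in study B on average, and Psme3 was 392 ± 106 (SD, n = 10) and 185 ± 20.7 (SD, n = 9). The studies were not compared by a test. In the authors' deposited table of comparisons, 12 members were called between obese and lean kidney (5 higher, 7 lower), beside 6036 of 17657 genes. With both compounds 16 were called in kidney (2 higher, 14 lower), beside 4829 of 17310 genes. In heart 18 were called with both (17 higher, 1 lower), beside 908 of 11281 genes. The authors also called 2 with BT2 alone in kidney (1 higher, 1 lower), beside 1777 of 15631 genes. With empagliflozin alone in kidney they called 6, all lower, beside 550 of 13346 genes. For these last 2 comparisons edgeR called no member. The samples were not the same, however. The authors' kidney comparison of BT2 alone left out the shallow BT2 replicate 2. Their comparison of both compounds left out the shallow vehicle replicate 8. The main edgeR fits kept these libraries, and without the shallow library edgeR called 1 member, Psme3, for BT2 alone. For Psmb8 in kidney the authors' deposited table gives log2 differences of 1.16 with obesity and -1.01 with both compounds.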

How the data were processed

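RNA of kidney and heart was measured in 120 libraries, 10 for each of 12 groups, and the labels place replicates 1 to 5 of a group on plate 1 and the others on plate 2. The deposited count tables hold expected counts, estimated by the authors per gene and run and not normalized (6.85% of values not whole). Libraries were made with a stranded poly-A kit, per the labels' protocols, but whether counting used the strand is not given in the sources used here. Build mRatBN7.2 and the tools MultiQC 1.11, Picard, STAR 2.7.3a, FastQC 0.11.9, DESeq2 1.34.0 and Salmon 1.5.2 are named in the submitters' processing notes. The deposited comparison tables hold signal (counts scaled by the authors per library), log2 fold changes and p-values with their adjusted values, computed by the authors. They served for symbols and for the values credited to them. The analysis read 163 of 245 count columns, since the names of 82 fit no labelled sample.

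Runs of a library were summed and rounded to whole numbers. Each comparison was fitted on its own groups in R 4.3.3 with edgeR 4.0.16 (filterByExpr, TMM, trended dispersion, quasi-likelihood F test, with a plate term). The threshold for a call was 0.05 for the p adjusted by Benjamini-Hochberg over all genes tested. Differences of effects were fitted as interactions. The SE beside a log2 difference was back-calculated, as its absolute value divided by the square root of F. It was not estimated on its own, and the p does not always follow from it. CPM used TMM factors over all libraries of an organ. Libraries under 1000000 counts were part of that scaling and were left out of ranges, medians, means and figures of CPM only. Libraries carrying other tissue exceeded 100 times the kidney median of Actc1 or Alb, or 5 times the heart median of Myl7 or 100 times that of Myh4. DESeq2 1.42.0, other size factors, no filter, no plate term, a replicate block, single plates and leaving libraries out were alternatives. Library size alone, and library size less mitochondrial counts for contrasts of the organs, were added after seeing the data. The fits were tested on simulated data. Tables and figures used Python 3.11.15, pandas 2.3.3 and matplotlib 3.10.9.

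The members and lists were chosen with earlier results of these data known. Named were Psmb8, Psmb9, Psmb10, Psme1, Psme2 and Nfe2l1 in each comparison, up to 5 further called members with the smallest adjusted p, and up to 3 called genes of each other list. Other called members are named to complete a count. Replicate numbers mark the plate. Same-numbered libraries of compared groups within an organ had a median correlation of deviations of 0.11 to 0.41. In no comparison was every pair over 0.1, so they were not treated as pairs. Those groups differ in genotype or compound, so these values cannot show whether a kidney and a heart came from the same rat. That was not tested, and the main fits of organ contrasts treat kidney and heart libraries as independent. Reads of Psmb6 and Psme1 may be shared with near copies in the annotation, and those of Psmb1, Psmc6, Psmd1, Psmd5 and Psme1 with overlapping genes. In RefSeq, Psma1, Psma8, Psmb2, Psmc1, Psmc5, Psmd8, Psmd14 and Psmf1 overlap other genes as well, so the same limit holds for them. A result on a further gene is not reported here.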

Additional observations from a re-analysis of the deposited data

Results flagged for a closer look

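Among the 60 sets of 10 or 9 libraries (5 interferon-inducible genes in 12 groups), 9 held a highest library far from the rest. The 5 genes were read in the same libraries, and several flags fell on the same library. The sets are therefore not independent, and the count is not set against chance. In lean kidney, replicate 8 was highest for Psmb8 (28.5 CPM, next 16.4), Psmb10 (25.2, next 16.9), Psme1 (253, next 166) and Psme2 (101, next 77.0). It is the deepest kidney library and carried transcripts of another tissue, and its leukocyte-marker sum was 805 CPM beside a group median of 689. In the kidney empagliflozin group, replicate 1 was highest for Psmb8 (99.9, next 57.0) and Psmb9 (74.6, next 33.1), with a leukocyte-marker sum of 2372 CPM beside a group median of 1338. In obese vehicle heart of study A, replicate 10 was highest for Psmb8 (37.0, next 21.0) and Psmb9 (33.85, next 20.3), with transcripts of another tissue and a leukocyte-marker sum of 569 CPM beside 358. In heart with empagliflozin, replicate 8 was highest for Psme1 (294, next 246), with a leukocyte-marker sum of 336 CPM beside 319.

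Of 20 tests of a difference between effects for these 5 genes, 9 passed in edgeR's quasi-likelihood test. The effect of obesity was higher in kidney than in heart for Psmb8 (0.83 on the log2 scale). The effect of BT2 plus empagliflozin was lower in kidney than in heart for Psmb8 (-1.21), Psmb9 (-1.15), Psmb10 (-0.94), Psme2 (-0.54) and Psme1 (-0.39). The BT2 difference in kidney was lower in study B, with empagliflozin in both groups, than in study A, without it. This held for Psmb8 (-0.81), Psmb9 (-0.74) and Psmb10 (-0.67). Study and empagliflozin cannot be told apart there. Psmb8 alone was called without the libraries carrying other tissue, and no member was called in either plate alone.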

How the results depend on the processing

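Counts of called members were recomputed under 161 alternatives, of which 112 stayed within 1.5 times the count reported and 49 did not. DESeq2 gave 1 for BT2 against vehicle and 6 for empagliflozin in kidney, 6 for both compounds against empagliflozin in heart (each 0 in edgeR), and 5 for the organ difference of obesity (3 in edgeR). The share of all genes called by DESeq2 is not given beside these counts. Without a low-count filter the heart counts were 0 for obese and 0 for BT2 against lean (1 each) and 8 for both compounds (13). Without the plate term they were 0, 0 and 1, with 7 for obese against lean kidney (11) and 1 for the organ difference of obesity. With the replicate number as a block, which was not treated as pairing, 5 members were called for obese against lean kidney and 6 for both compounds in heart, and the block moved no other count by more than 1.5 times. In 0 to 5 of 9 or 10 cases a library correlated best with its own number.

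Plate 1 alone gave 5 for BT2 against lean and 6 for both compounds in kidney, 11 for empagliflozin in heart, 11 for the organ difference of both compounds, and 0 for both compounds, obese against lean and BT2 against lean in heart and for BT2 by empagliflozin in kidney. Plate 2 alone gave 2 for obese against lean, 9 for both compounds and 3 for both against empagliflozin in kidney, 5 for the organ difference of both compounds, and 0 for that of obesity, for BT2 by empagliflozin and for the same 3 heart comparisons. Each plate holds 5 libraries a group, and the share of all genes called in a single plate is not given beside these counts. Without the shallow libraries the kidney counts for BT2 were 1 against vehicle and 13 against lean. Without libraries carrying other tissue they were 1 and 14, with 5 for both compounds against empagliflozin, 1 for BT2 by empagliflozin, 12 for the organ difference of both compounds, and 0 for both compounds and for BT2 against lean in heart. The cause was not tested. At this depth Psma8 could not be tested.

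Library size alone, chosen after seeing the data, gave 1 for BT2 against vehicle, 14 for BT2 against lean, 24 for both compounds, 21 for both against empagliflozin and 5 for BT2 by empagliflozin in kidney. In heart it gave 2 for obese against lean, 12 for BT2 against lean and 2 for both compounds, and it gave 13 for the organ difference of obesity. Of 69 called single-gene results under 675 alternatives, 125 lost the call and 6 reversed, all on library size alone: Psmg1 (0.027) and Psmc4 (0.016) in obese against lean kidney, Psmd13 (-0.023) for both compounds against empagliflozin in kidney, Psme2 (0.40) and Psmb2 (0.22) between lean organs, and Psmc4 (0.077) in the organ difference of obesity.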
